A study of Mus musculus with 4 samples.

Results

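The expanded T cell clones of the p53 KO tumour were 101 cells in 24 clonotypes, out of 210 cells with exactly 1 alpha (TRA) and 1 beta (TRB) receptor chain in that library. They were chosen by a measured value, the number of cells in their clonotype. A clonotype is the receptor group the authors assigned to a cell, and it counted as expanded when 2 or more of its cells had at least 1 TRA and 1 TRB chain. The other 109 cells each stood alone in a clonotype and serve here as the set for comparison. In all, the p53 KO library held 392 cells with any chain, of which 259 were paired (at least 1 TRA and 1 TRB), and the whole series held 800 cells. All 709 chains of the p53 KO library were TRA (336) or TRB (373), the chains of alpha-beta T cells. Gamma, delta and immunoglobulin chains numbered 0. That 0 depends on which chains the TCR library was made to read, and does not show whether other lymphocytes were present.

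The study grew MC38 tumours, a mouse colon carcinoma line, in C57BL/6J mice. The tumours were WT or carried a p53 knockout made in the line with CRISPR-Cas9, and the mice of both groups received anti-PD-1, which blocks a brake on T cell activity. Whole tumours were run on the 10x Chromium platform with 5′ gene expression and TCR libraries, 1 of each kind per genotype, and only the TCR libraries were analysed here. The knockout lay in the inoculated tumour cells, whereas the T cells were those of the host. Chains of T cell receptors do not show the state of p53, so that label was not checked. The sources used here do not give how many mice stand behind each library. With 1 library per genotype there was no replicate check and no test.

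A T cell builds each receptor chain by joining gene segments, V and J for alpha and V, D and J for beta, and bases are trimmed and added where they meet. The joint encodes CDR3, the loop that lies over the antigen peptide, while CDR1 and CDR2 are encoded in the V segment. Daughter cells inherit the same pair of joints, so cells that share both sequences are counted as a clone, and clones grow when T cells meet their antigen, as in tumours under checkpoint blockade.

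The CDR3 bases of the 10 clonotypes with most member cells are shown because they define the clones. Each is written 5′ to 3′ from the deposited contigs. Capitals mark the bases between the start shared by chains of the same V gene and the end shared by chains of the same J gene, which take in the D segment and added bases. The order is by member cells, from 28 in clonotype1 down to 2 in clonotype12.
clonotype1 alpha (TRAV7D-3, TRAJ37): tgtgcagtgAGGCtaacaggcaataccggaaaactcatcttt
clonotype1 beta (TRBV1, TRBJ2-2): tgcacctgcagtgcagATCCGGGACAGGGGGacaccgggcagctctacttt
clonotype2 alpha (TRAV7-6, TRAJ43): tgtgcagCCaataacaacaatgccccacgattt
clonotype2 beta (TRBV19, TRBJ2-1): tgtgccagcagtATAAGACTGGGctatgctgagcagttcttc
clonotype4 alpha (TRAV7-4, TRAJ33): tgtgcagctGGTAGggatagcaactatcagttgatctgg
clonotype4 beta (TRBV5, TRBJ2-1): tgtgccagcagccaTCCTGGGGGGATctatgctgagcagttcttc
clonotype6 alpha (TRAV9D-3, TRAJ7): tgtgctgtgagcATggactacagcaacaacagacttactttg
clonotype6 beta (TRBV2, TRBJ2-5): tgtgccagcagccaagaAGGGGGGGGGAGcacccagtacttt
clonotype9 alpha (TRAV3D-3, TRAJ7): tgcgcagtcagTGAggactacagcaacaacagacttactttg
clonotype9 beta (TRBV5, TRBJ1-1): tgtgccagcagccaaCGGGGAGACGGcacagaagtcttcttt
clonotype8 alpha (TRAV7-3, TRAJ26): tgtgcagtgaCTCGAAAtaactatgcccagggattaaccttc
clonotype8 beta (TRBV26, TRBJ2-7): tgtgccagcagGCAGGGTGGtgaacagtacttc
clonotype11 alpha (TRAV14D-3-DV8, TRAJ7): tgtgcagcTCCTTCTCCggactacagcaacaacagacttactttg
clonotype11 beta (TRBV13-1, TRBJ2-4): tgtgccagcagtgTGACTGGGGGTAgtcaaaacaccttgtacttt
clonotype14 alpha (TRAV14-1, TRAJ7): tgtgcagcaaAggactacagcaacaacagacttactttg
clonotype14 beta (TRBV5, TRBJ2-3): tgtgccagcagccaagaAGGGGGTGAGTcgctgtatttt
clonotype20 alpha (TRAV6N-6, TRAJ23): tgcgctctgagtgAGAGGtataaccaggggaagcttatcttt
clonotype20 beta (TRBV15, TRBJ2-1): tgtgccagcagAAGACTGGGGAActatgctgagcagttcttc
clonotype12 alpha (TRAV9-1, TRAJ23): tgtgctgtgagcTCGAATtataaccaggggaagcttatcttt
clonotype12 beta (TRBV10, TRBJ2-5): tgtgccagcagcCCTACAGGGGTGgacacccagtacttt

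The V genes of these chains lie in the alpha locus on chromosome 14 and the beta locus on chromosome 6 of the mouse (RefSeq, GRCm38.p6, the assembly behind mm10). Of 60 names, those of the expanded clonotypes' genes and of all D and C genes, 59 were matched there. TRAV7D-3, the V segment of the largest clone, lies at chr14:52744314-52744838, and its beta partner TRBV1 at chr6:40891296-40891885. TRAV7-6 of the second clone lies at chr14:53716760-53717291 and TRBV19 at chr6:41178589-41179048. TRAV7-4 of the third clone lies at chr14:53461209-53461738 and TRBV5 at chr6:41062359-41062803. Mouse alpha V genes exist in near-identical copies (the names with D or N), so a name within a family is uncertain.

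Expansion was concentrated in a few clones. Members made up 48.1% of the cells with 1 TRA and 1 TRB (101 of 210, exact 95% interval 41.2 to 55.1%). All such intervals are Clopper-Pearson and cover counting error only, and cells of a clone are not independent draws. The largest clone, TRAV7D-3/TRBV1, held 28 cells, which was 27.7% of the members (19.3 to 37.5%). The second, TRAV7-6/TRBV19, held 16 cells, and the third, TRAV7-4/TRBV5, held 10. Together these 3 clones held 54 of the 101 members (53.5%, 43.3 to 63.5%). Without them, 47 members in 21 clonotypes remained, 30.1% of 156 cells (23.1 to 37.98%).

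Below the top 3 the clones were small. TRAV9D-3/TRBV2 held 6 members, TRAV3D-3/TRBV5 held 4, and TRAV7-3/TRBV26, TRAV14D-3-DV8/TRBV13-1, TRAV14-1/TRBV5 and TRAV6N-6/TRBV15 held 3 each. Another 10 clonotypes had 2 members, and 5 had 1 member, because their other paired cell carried an extra chain. At the threshold itself, 11 clonotypes with 17 members had exactly 2 paired cells, and just outside it stood the 109 single-cell clonotypes, of which 19 had a beta chain that was also read in another cell. In the WT library 88 of 234 such cells were expanded (37.6%, 31.4 to 44.2%), over 35 clonotypes. There the 3 largest held 14 of the 88 (15.9%, 8.98 to 25.2%). With 1 library per genotype, a difference of genotype and a difference between tumours or libraries cannot be told apart.

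**Figure D1:**
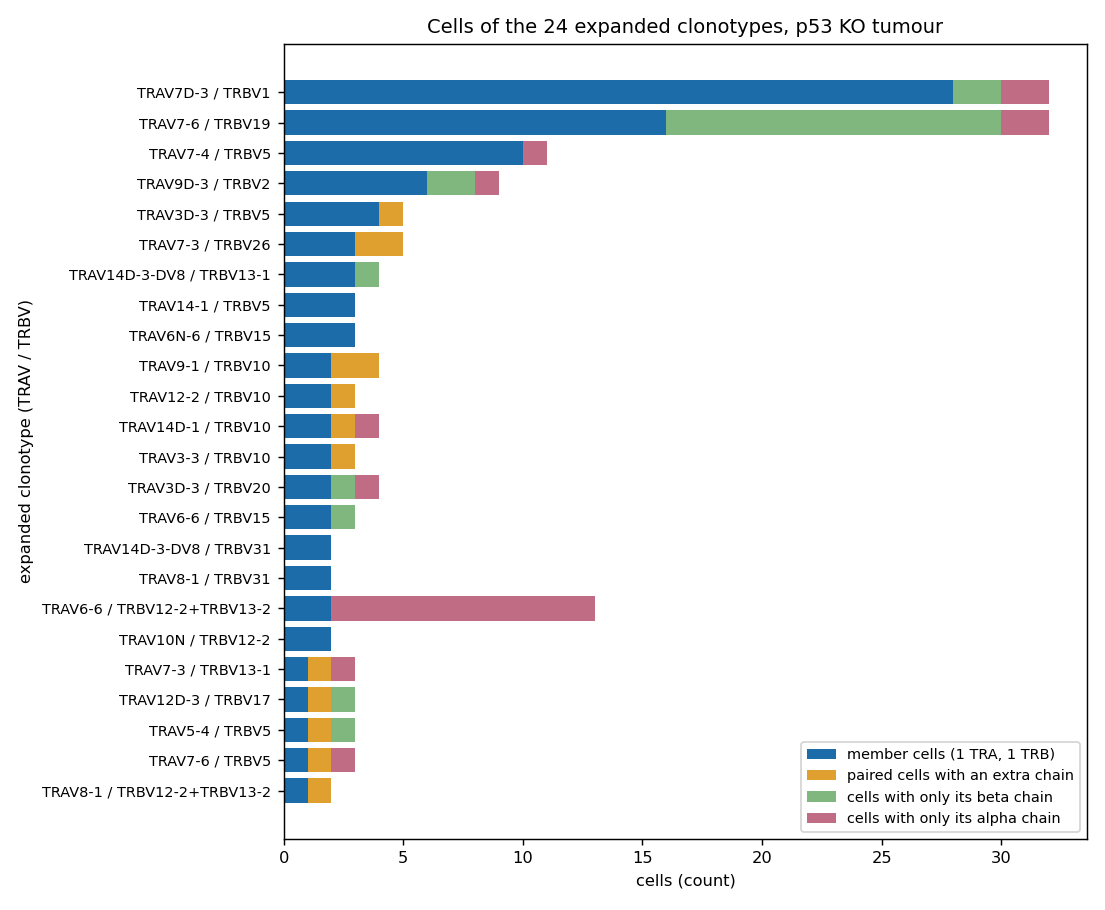
Cells (count) of each of the 24 expanded clonotypes, named by alpha and beta V gene, with member cells in blue, paired cells with an extra chain in orange, and cells in which only the beta (green) or only the alpha chain (pink) of that clonotype was read. TRAV7-6/TRBV19 had 14 beta-only cells beside its 16 members, and TRAV6-6/TRBV12-2+TRBV13-2 had 11 alpha-only cells beside 2 members; the bar TRAV3-3/TRBV10 is the clonotype with differing alphas.

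Incomplete cells also carried the chains of the clones. The beta chain of TRAV7-6/TRBV19 was read in 31 cells, of which 14 had no alpha chain. This clone also had the lowest alpha counts among the 3 largest, with 1 TRA UMI in 8 of its 16 cells (50%, 24.7 to 75.3%) against 7 of the 85 other members (8.24%, 3.38 to 16.2%). A UMI is a molecular tag that counts 1 captured transcript once. Over the whole library, 23 of 92 cells with only a beta chain (25%, 16.6 to 35.1%) carried the beta of an expanded clonotype, and 21 of 41 cells with only an alpha chain (51.2%, 35.1 to 67.1%) carried an expanded alpha. Of the 23, 14 had the TRAV7-6/TRBV19 beta, and of the 21, 11 had the alpha of TRAV6-6/TRBV12-2+TRBV13-2 (clonotype38). Chains of single-cell clonotypes, partly the same ones, were met there too, betas in 26 of the 92 and alphas in 23 of the 41.

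One alpha chain stood apart from its clone. Clonotype38 joined TRAV6-6 to TRAJ18 with 0 bases between the shared V start and J end. Its beta was TRBV12-2+TRBV13-2 (deposited under this joint name) with TRBJ2-1, and this beta held a long run of G. Both sequences are shown because the alpha spread further than the beta.
clonotype38 alpha: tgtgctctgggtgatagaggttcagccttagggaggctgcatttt
clonotype38 beta: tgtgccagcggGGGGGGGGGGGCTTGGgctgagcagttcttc
The alpha was read in 16 cells, and the beta in 2. Of the 16 cells, 11 had no beta chain, 2 were the members, and 3 were other paired cells with different betas (TRBV23 and TRBV19 in one, TRBV1 in another, TRBV17 in the last). In the members this alpha had 3 and 10 UMIs, and in the 3 other paired cells 8, 2 and 7 UMIs. It was read in 0 WT cells.

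Extra chains were unevenly spread over the clones. A T cell can carry a second alpha or beta rearrangement, and a droplet with 2 cells also gives extra chains, and no doublet caller was run. Of 116 paired cells in clonotypes of 2 or more cells, 15 had an extra chain (12.9%, 7.42 to 20.4%), against 34 of 143 paired cells of single-cell clonotypes (23.8%, 17.1 to 31.6%). In the 3 largest clones the count was 0 of 54, which allows a share of up to 5.56% by the rule of 3 counts of the total, and up to 6.60% by the exact interval. In the other clonotypes of 2 or more it was 15 of 62 (24.2%, 14.2 to 36.7%), near the share of the single-cell clonotypes. Both extra-chain cells of TRAV7-3/TRBV26 carried a second alpha of the same genes, TRAV12-2 with TRAJ43, at 6 and 8 UMIs. One clonotype of 2 cells had no member, since both of its cells carried a TRAV2 and a TRAV11 alpha with a TRBV16 beta.

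In clonotype19 the 2 members shared the TRBV10/TRBJ1-1 beta but had different alphas. TRAV3-3 with TRAJ42 was read in one and TRAV5-4 with TRAJ37 in the other, and the remaining paired cell of the clonotype carried both. For counts over clonotypes it was entered under TRAV3-3.

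Gene usage was compared over clonotypes, so that a large clone counted once. The comparison took the 9 genes that reached 10 clonotypes over both sets. Of these, 3 had a share among expanded clonotypes at least 2 times that of single-cell clonotypes (33.3%), and 2 had a share of at most 0.5 times (22.2%). The higher ones were the beta segments TRBV5 and TRBJ2-1 and the alpha segment TRAJ23. TRAJ18 and TRBJ2-4 were the lower ones, each in 1 expanded clonotype (4.17%, 0.105 to 21.1%). They were in 10 (9.17%, 4.49 to 16.2%) and 12 (11.01%, 5.82 to 18.4%) single-cell clonotypes. For each of the higher and lower genes the intervals of both sets overlap. The ratio is no test, so a difference in use is not shown. The intervals are wide, because 1 clonotype is 4.17% of 24. Without the 3 largest, 4 of the 9 genes passed: TRAJ23, TRBV5 and TRBJ2-1 higher and TRBJ2-4 lower. With cells regrouped by V gene and CDR3 bases, 3 of 9 passed.

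**Figure D2:**
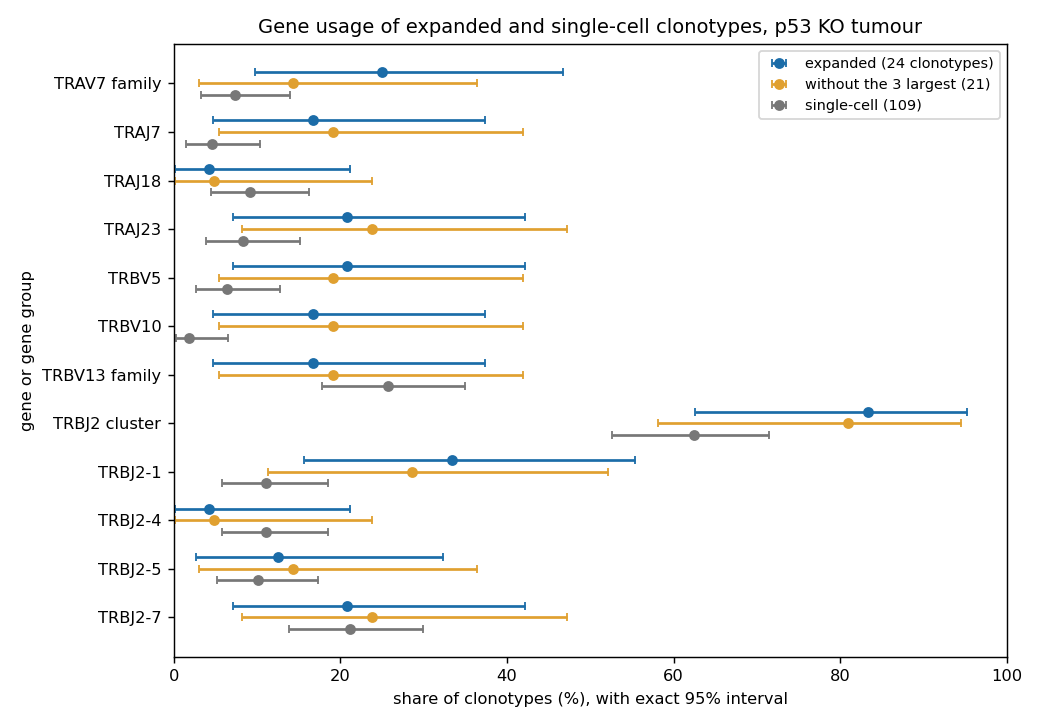
Share of clonotypes (%) that use each gene or gene group among the 24 expanded clonotypes (blue), the 21 left without the 3 largest (orange) and the 109 single-cell clonotypes (grey) of the p53 KO library, with exact 95% intervals. TRBJ2-1 stood at 33.3% against 11.01% and TRBV10 at 16.7% against 1.83%, while TRBJ2-7 stood near 21% in both; the TRAV7 family fell to 14.3% without the 3 largest.

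Among alpha V genes the TRAV7 family led. It was used by 6 of 24 expanded clonotypes (25%, 9.77 to 46.7%) and by 8 of 109 single-cell clonotypes (7.34%, 3.22 to 13.95%), a difference of 17.7 percentage points (Newcombe interval 3.14 to 37.9). All 3 of the largest clones used it, so by cells it reached 59 of 101. Without those 3, it was in 3 of 21 clonotypes (14.3%, 3.05 to 36.3%), a difference of 6.95 points whose interval spans 0 (-4.39 to 27.6). The interval also spanned 0 with clonotypes by V gene and CDR3 bases (11.2 points, -2.52 to 33.1), with extra-chain cells kept (9.51 points, -3.19 to 29.1) and with cells grouped by beta chain (8.44 points, -2.89 to 23.9). This family was already seen in earlier results of these data and is no independent observation.

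The 6 TRAV7 clonotypes used 4 genes but 3 forms of CDR1 and CDR2, the loops encoded in the V segment. TRAV7D-3 and TRAV7-3 shared 1 form, which covered 3 clonotypes and 32 cells. TRAV7-6 had another form with 17 cells, and TRAV7-4 the remaining one with 10 cells. Of these genes, TRAV7D-3, TRAV7-3 and TRAV7-6 were in 0 single-cell clonotypes, whereas TRAV7D-2 was in 4 single-cell and 0 expanded ones. The WT library did not share this split. There TRAV7-3 was in 4, TRAV7-6 in 2 and TRAV7D-3 in 1 of 146 single-cell clonotypes, and TRAV7D-2 was in 2 expanded ones. In WT, 4 of 35 expanded clonotypes used the family (11.4%, 3.20 to 26.7%).

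Other common alpha V families had shares near those of the single-cell clonotypes. TRAV14 was in 4 expanded clonotypes (16.7%) against 13 single-cell ones (11.9%), TRAV3 in 3 (12.5%) against 14 (12.8%), and TRAV6 in 3 (12.5%) against 16 (14.7%). TRAV13, TRAV11 and TRAV16 were in 0 expanded clonotypes and in 7, 5 and 5 single-cell ones. A count of 0 of 24 allows up to 12.5% by 3 counts and 14.2% by the exact interval, both above all these shares, so an absence was not detectable at this depth. In all, the expanded clonotypes used 18 TRAV and 15 TRAJ genes, and the single-cell clonotypes 51 and 34.

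Among alpha J genes, TRAJ23 and TRAJ7 were in the most expanded clonotypes. TRAJ23, at chr14:54196081-54196140, was in 5 expanded clonotypes (20.8%, 7.13 to 42.2%) against 9 single-cell ones (8.26%, 3.85 to 15.1%). TRAJ7, at chr14:54211470-54211528, was in 4 (16.7%, 4.74 to 37.4%) against 5 (4.59%, 1.51 to 10.4%), too few clonotypes for the rule of 10. One or the other was in 9 of 24 expanded clonotypes (37.5%, 18.8 to 59.4%) and in 14 of 109 single-cell ones (12.8%, 7.20 to 20.6%). None of the 3 largest clones used either gene. Outside them these genes were in 9 of 21 clonotypes (42.9%, 21.8 to 66.0%). By cells, which are not independent within a clone, it was 27 of 47 (57.4%). The pair was put together after its values were seen. In WT, 6 of 35 expanded clonotypes used one of them (17.1%, 6.56 to 33.6%).

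The 4 TRAJ7 clones came from 4 different alpha V genes and had 4 different beta sequences, from 3 beta V genes. They were TRAV9D-3/TRBV2 (6 cells), TRAV3D-3/TRBV5 (4 cells), TRAV14D-3-DV8/TRBV13-1 (3 cells) and TRAV14-1/TRBV5 (3 cells). Their alpha sequences above end in the same J bases, and the first pair of them, of 14 residues each, differed by 1 residue. The 5 TRAJ23 clones, TRAV6N-6, TRAV9-1, TRAV3D-3, TRAV6-6 and TRAV10N, had 3, 2, 2, 2 and 2 cells.

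Positions along the J alpha locus did not set the clones apart. J genes numbered 40 or above, which lie nearer to the V genes, were in 5 expanded clonotypes (20.8%) and 22 single-cell ones (20.2%), a difference of 0.650 points (-13.7 to 21.3). In WT they were in 15 of 35 expanded clonotypes (42.9%, 26.3 to 60.6%). The invariant alpha chain of NKT cells, TRAV11 with TRAJ18, was in 0 of 24 expanded clonotypes and in 5 of 109 single-cell ones (4.59%). Since 0 of 24 allows more than that share, a difference was not detectable at this depth. By cells it was 0 of 101 members, which allows up to 2.97% by 3 counts and 3.59% by the exact interval, though cells of a clone are not independent. The MAIT chain, TRAV1 with TRAJ33, was in 0 of both. The 1 expanded clonotype with TRAJ18 was clonotype38, whose V gene was TRAV6-6. In addition, the extra-chain cell of clonotype13 (TRAV12D-3/TRBV17) carried a TRAV11/TRAJ18 alpha at 2 UMIs.

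Among beta V genes, TRBV5 and TRBV10 were in the most expanded clonotypes. TRBV5 was in 5 of 24 (20.8%, 7.13 to 42.2%) against 7 of 109 (6.42%, 2.62 to 12.8%), a ratio of 3.24. TRBV10 was in 4 (16.7%, 4.74 to 37.4%) against 2 (1.83%, 0.223 to 6.47%), too few clonotypes for the rule of 10. One or the other was in 9 of 24 expanded and 9 of 109 single-cell clonotypes (8.26%, 3.85 to 15.1%), and in 0 of 35 expanded WT clonotypes, which allows up to 8.57% by 3 counts and 10.0% by the exact interval. In the WT single-cell clonotypes it was 19 of 146 (13.01%, 8.02 to 19.6%). These names were also combined after their values were seen. RefSeq lists the gene called TRBV10 as a pseudogene, the library held 19 contigs of that name and 0 of TRBV4, and the name is printed as deposited.

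By cells TRBV10 was less prominent than TRBV5. The 4 TRBV10 clonotypes had 2 members each and alpha V genes of 4 families, TRAV9, TRAV12, TRAV14 and TRAV3. All 4 also had an extra-chain cell, 2 in TRAV9-1/TRBV10 and 1 in each of the others, and whether extra chains play a part in their size was not tested. TRBV5 covered 19 member cells, of which 10 were in the third largest clone. The TRBV13 family, with the combined name, was in 4 expanded (16.7%) and 28 single-cell clonotypes (25.7%, 17.8 to 34.9%). TRBV3 and TRBV29 were in 8 (7.34%) and 7 (6.42%) single-cell clonotypes and 0 expanded ones. Since 0 of 24 allows up to 14.2% by the exact interval, an absence was not detectable.

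On the J side, TRBJ2-1, the first segment of the second J cluster, was in 8 expanded clonotypes (33.3%, 15.6 to 55.3%) against 12 single-cell ones (11.01%, 5.82 to 18.4%), a ratio of 3.03. The clones that carried it included the second and the third largest. TRBJ2-7 was in 5 expanded clonotypes (20.8%) and 23 single-cell ones (21.1%), and TRBJ2-5 in 3 (12.5%) and 11 (10.1%). TRBJ2-4 was in 1 (4.17%) and 12 (11.01%). The largest clone was the only expanded clonotype with TRBJ2-2, which was in 4 single-cell ones.

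Most expanded betas used the second J and C cluster. TRBJ2 segments were in 20 of 24 expanded (83.3%, 62.6 to 95.3%) and 68 of 109 single-cell clonotypes (62.4%, 52.6 to 71.5%). The difference was 20.9 points, with an interval just spanning 0 (-0.0476 to 34.6), and without the 3 largest it was 18.6 points. In WT the cluster was in 26 of 35 expanded (74.3%, 56.7 to 87.5%) and 106 of 146 single-cell clonotypes (72.6%, 64.6 to 79.7%). High use of TRBJ2 was thus not particular to expanded clones. Each TRBJ1 chain went with TRBC1 (4 expanded and 41 single-cell clonotypes) and each TRBJ2 chain with TRBC2 (20 and 68), and in the locus each J cluster lies before its own C gene. A single member cell had no C gene named. D segments were rarely named in the deposited contigs. TRBD1 was named in 3 expanded clonotypes (12.5%), the largest clone among them, and TRBD2 in 0, against 18 (16.5%) and 8 (7.34%) of the single-cell clonotypes. For TRBD2, 0 of 24 allows up to 14.2% by the exact interval, above the single-cell share.

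Pairing of alpha with beta V genes hardly repeated. The 24 expanded clonotypes held 24 different TRAV-TRBV pairs, of which 3 were also met in single-cell clonotypes. For TRAV7-4/TRBV5 and TRAV9D-3/TRBV2 the single cell was a near or exact copy of the clone, described further on, which leaves TRAV14-1/TRBV5 as a pair met in another receptor. By family, TRAV7 with TRBV5 occurred in 2 expanded clonotypes with 11 cells, and TRAV6 with TRBV15 in 2 with 5 cells. The first of these were TRAV7-4/TRBV5 and TRAV7-6/TRBV5. The second were TRAV6N-6/TRBV15 and TRAV6-6/TRBV15, which also shared TRAJ23 and differed in the beta J gene. Within 1 chain, TRAV8-1 with TRAJ15 occurred in 2 expanded and 0 single-cell clonotypes, and both had TRBJ2-1 on the beta side. TRBV31 with TRBJ2-1 was in 2 expanded and 1 single-cell clonotypes, and TRBV12-2+TRBV13-2 with TRBJ2-1 in 2 and 0.

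**Figure D3:**
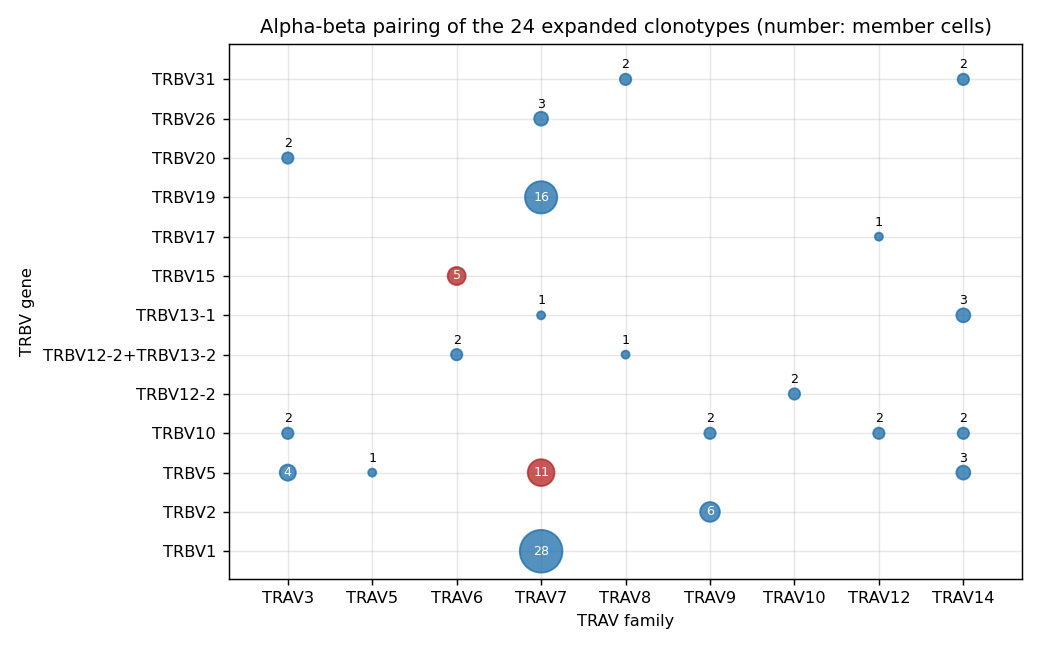
Pairs of alpha V family (x axis) and beta V gene (y axis) among the 24 expanded clonotypes, with circle area proportional to the member cells and the number giving them. Red circles are the pairs met in 2 clonotypes, TRAV7 with TRBV5 (11 cells) and TRAV6 with TRBV15 (5 cells); the TRAV7 column holds the clones of 28 and 16 cells, each with its own beta V gene.

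The CDR3 beta had the same median length in expanded and single-cell clonotypes. It averaged 14.04 residues (SD 1.40 over 24 clonotypes) against 14.12 (SD 1.40 over 109), and the median was 14 in both. A beta of 14 or more residues was in 16 of 24 (66.7%, 44.7 to 84.4%) and 76 of 109 (69.7%, 60.2 to 78.2%). By cells the share was 86 of 101 (85.1%, 76.7 to 91.4%), and without the 3 largest clones it was 32 of 47 (68.1%, 52.9 to 80.9%). The largest clone had a beta of 17 residues, the longest length among the expanded clonotypes, shared with TRAV6-6/TRBV15. TRAV7-3/TRBV26 had the shortest, 11.

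The alpha loop averaged 13.6 residues (SD 1.44) against 13.8 (SD 1.25). An alpha of 14 or more residues was in 12 of 24 expanded (50%, 29.1 to 70.9%) and 64 of 109 single-cell clonotypes (58.7%, 48.9 to 68.1%), and the interval of the difference spans 0 (-29.3 to 12.1). The direction was not stable: it turned in 5 of 7 alternatives, up to 18.2 points higher with clones of 3 or more cells alone (10 of 13 clonotypes, -10.4 to 35.8), and each of these intervals spans 0. TRAV7-6/TRBV19 had one of the 2 shortest alphas, 11 residues, and the other also used TRAV7-6. Clonotype19 had the longest, 17.

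**Figure D4:**
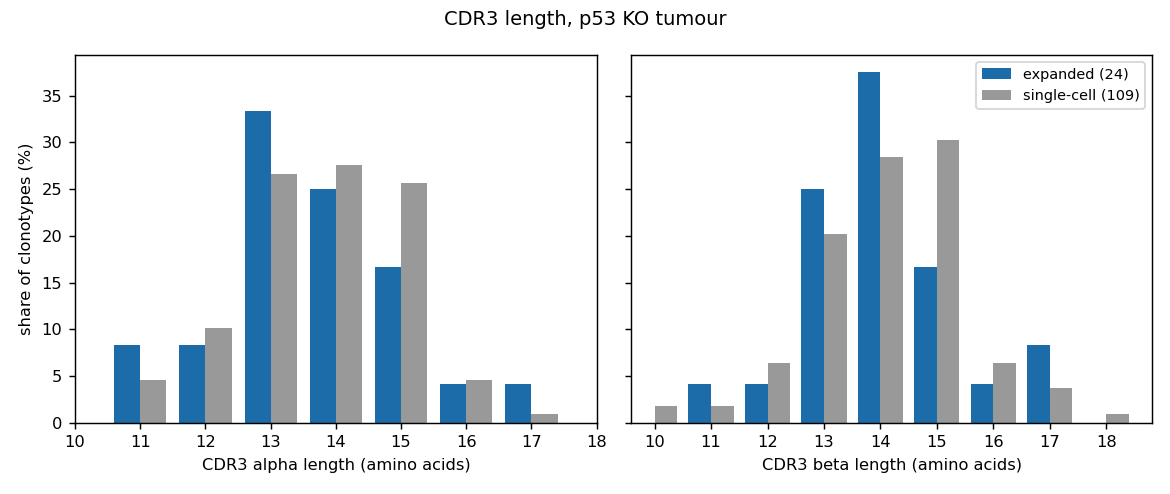
CDR3 length in amino acids (x axis) against the share of clonotypes (%, y axis), for the alpha chain (left) and the beta chain (right), with the 24 expanded clonotypes in blue and the 109 single-cell clonotypes in grey. Beta lengths peaked at 14 residues (37.5%) in the expanded and at 15 (30.3%) in the single-cell clonotypes, and the median beta length was 14 in both.

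The number of bases between the shared V start and J end had the same median in both sets. It was 12 bases in the beta chains, with a range of 8 to 23 among expanded and 2 to 23 among single-cell clonotypes. In alpha chains the median was 4 in both. The 2 expanded alphas with 0 such bases were those of clonotype38 and of TRAV8-1/TRBV31. The largest clone had 4 bases in its alpha and 15 in its beta, and the second 2 and 11.

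Residues in the middle of CDR3, without the first 4 and last 4, were mostly shared in kind. Asparagine was the class that differed most, in the middle of 5 of 24 expanded betas (20.8%, 7.13 to 42.2%) against 50 of 109 (45.9%, 36.3 to 55.7%). None of the 3 largest clones had one there. A pair of adjacent glycines was in 10 of 24 betas (41.7%, 22.1 to 63.4%) against 31 of 109 (28.4%, 20.2 to 37.9%), a difference of 13.2 points whose interval spans 0 (-6.23 to 34.2). The difference was 23.5 points (1.53 to 44.8) with clonotypes by V gene and CDR3 bases and 19.9 points (2.39 to 37.5) with cells grouped by beta chain, and there the interval lay above 0. Any glycine was in 21 (87.5%) against 89 (81.7%), and an acidic residue in 13 (54.2%) against 62 (56.9%). Basic residues were in 7 betas (29.2%) against 34 (31.2%) and in 8 alphas (33.3%, 15.6 to 55.3%) against 21 (19.3%, 12.3 to 27.9%). Mean Kyte-Doolittle hydropathy of the middle, in which higher is more hydrophobic, was -1.05 (SD 0.899) for expanded and -1.09 (SD 0.966) for single-cell betas, and -1.75 (SD 0.947) and -1.32 (SD 0.828) for alphas.

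Receptor transcripts were counted somewhat higher in members. The median was 8 TRB UMIs per member cell (95% order-statistic interval 6 to 8, range 1 to 27) against 5 in single-cell clonotypes (4 to 6, range 1 to 31). For TRA it was 4 (3 to 5, range 1 to 22) against 3 (3 to 4, range 1 to 16). Without the 3 largest clones the medians were 6 TRB (4 to 8) and 3 TRA (3 to 5), so both sets overlapped. More TRB than TRA UMIs were counted in 68 of 101 members (67.3%, 57.3 to 76.3%) and in 66 of 109 single-cell clonotypes (60.6%, 50.7 to 69.8%). In expanded WT cells the medians were 4 TRB and 6 TRA, and 34 of 88 cells (38.6%, 28.4 to 49.6%) had more TRB. In WT single-cell clonotypes the medians were 4 TRB and 4 TRA, and 68 of 146 cells (46.6%, 38.3 to 55.0%) had more TRB. The balance of the 2 chains thus also differed between the single cells of the libraries.

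Clones differed from each other in these counts. TRAV7D-3/TRBV1 had a median of 7 TRA (range 1 to 22) and 8 TRB UMIs (range 2 to 27). TRAV7-6/TRBV19 had 1.5 TRA (range 1 to 13) and 8 TRB (range 4 to 26). TRAV7-4/TRBV5 had 4.5 TRA (range 2 to 15) and 9.5 TRB (range 2 to 14). The betas of the top 3 were thus read at like depth, while alpha medians ran from 1.5 to 7. By median per clonotype, the highest in beta were clonotype38 (2 cells) and clonotype13 (1 member), at 18 UMIs, and the TRAV6N-6/TRBV15 clone, with a median of 17 over 3 cells. TRAV7-3/TRBV26 was lowest among clones of 3 or more, at 2.

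**Figure D5:**
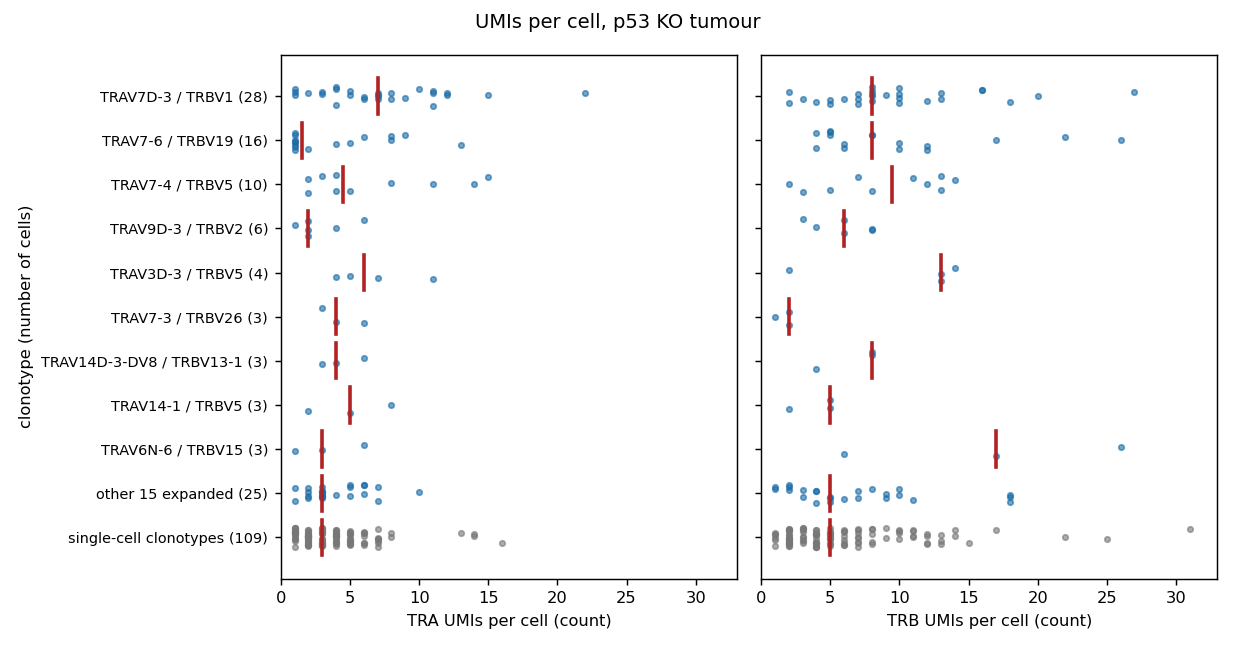
TRA (left) and TRB (right) UMIs per cell (count), 1 point per cell, for the 9 clones of 3 or more members, the other 15 expanded clonotypes together and the single-cell clonotypes, with red bars at the medians. The second clone, TRAV7-6/TRBV19, had 8 of its 16 cells at 1 TRA UMI but a TRB median of 8, the same as the largest clone.

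Near copies of expanded receptors stood among the single-cell clonotypes. One cell outside the third largest clone had the same V and J genes and the same beta CDR3 bases, and its alpha differed by 1 base, G10A, counted from 1 at the 5′ end of the CDR3 with the base of the expanded clone first. Its chains had 13 TRA and 11 TRB UMIs. Both alphas are shown for that base. The capitals follow the shared V start of TRAV7-4, which extends further along the second.
clonotype4 alpha: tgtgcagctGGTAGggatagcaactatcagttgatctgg
single-cell clonotype124 alpha: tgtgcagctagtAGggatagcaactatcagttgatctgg
Another single cell carried both CDR3 sequences of TRAV9D-3/TRBV2 without any change (7 TRA and 4 TRB UMIs) but had a clonotype of its own in the deposited file. The beta of TRAV7-6/TRBV19 was read in 1 further paired cell, where its partner was TRAV10N with TRAJ17.

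No expanded receptor was shared with WT by bases. Of 24 expanded clonotypes, 0 alphas and 0 betas had the same CDR3 bases in a WT cell, and 0 cell barcodes occurred in both libraries. The single-cell clonotypes were not matched to WT, so this absence is not shown to be a trait of the expanded ones. By residues 3 alphas and 0 betas were met in WT, those of TRAV3D-3/TRBV20, TRAV7-3/TRBV13-1 and TRAV5-4/TRBV5, in 1 WT cell each and with another V gene. The first is shown because the same residues were written with different bases in both libraries. Each of the other versions used TRAV3-3 and differed from it at 2 bases.
clonotype16 alpha (TRAV3D-3, 5 cells): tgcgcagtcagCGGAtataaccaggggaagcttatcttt
p53 KO alpha (TRAV3-3, 2 cells): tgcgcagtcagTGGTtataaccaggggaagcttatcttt
WT alpha (TRAV3-3, 1 cell): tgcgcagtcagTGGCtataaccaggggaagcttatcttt
Their beta partners were not the TRBV20 of clonotype16 but TRBV12-2+TRBV13-2 or TRBV13-2. Within the p53 KO library 10 of 24 expanded alphas lay within 1 residue (a change, gain or loss) of another alpha, against 1 of 24 betas. The median distance to the nearest was 2 residues for alphas and 3 for betas. These distances were not taken for the single-cell clonotypes, so they do not set the expanded chains apart.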

How the data were processed

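For each TCR library the authors deposited a list of filtered contigs, 1 per assembled receptor chain, with its V, D, J and C gene, CDR3 and clonotype. UMIs and reads per contig are whole-number counts per the file headers, not normalized. Cell Ranger 6.1.1 and mm10 were used per the submitters' processing notes, and for the V(D)J reference no version is given in the sources used here. All 709 contigs of the p53 KO library were marked productive, and they held 4138 UMIs.

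Members and gene lists were chosen with earlier results of these data known. Samples were grouped by the genotype and library type in their titles. Named were the 10 clonotypes with most members, clonotypes whose CDR3 recurs elsewhere, the 3 commonest genes of each kind (ties included), all D and C genes, genes in 10 or more clonotypes past the ratio of 2 or 0.5, pairs met in 2 or more expanded clonotypes, and the genes of the lists. V starts and J ends were estimated from the chains of both libraries, as the longest start or end of CDR3 bases carried by 70% or more of at least 3 chains, or by the V family for rare genes (103 of 104 V and 53 of 55 J genes). Intervals are 95%. Tools were scipy 1.17.1, matplotlib 3.10.9, numpy 2.4.6 and pandas 2.3.3 under Python 3.11.15. The selection of members was checked on simulated data. With 1 library per genotype no test was made and no doublet caller was run. Alternatives left out the 3 largest clonotypes, counted cells, kept extra chains, asked for 3 or more UMIs per contig or 3 or more cells, or regrouped cells by V gene and CDR3 bases or by the beta chain.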

Additional observations from a re-analysis of the deposited data

How the results depend on the processing

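Of 90 alternative values for 13 results, 78 stayed within the counting interval or spread of the reported value, and 12 did not. The count of genes past the usage ratio was judged by a set ratio instead. Intervals of the differences are wide, as for alphas of 14 or more residues (-29.3 to 12.1), so staying within one is weak support. The TRBJ2 and TRBC2 shares are counted as separate results, though both were 20 of 24 against 68 of 109 as reported. A change of sign was counted only where the reported interval lay off 0, which among the differences held for TRAV7 alone. The 0 such changes therefore say little about the rest. The difference for J genes numbered 40 or above, reported as 0.650 points, ran from -6.88 (extra chains kept) to 2.89 (clones of 3 or more cells). The expanded share was 30.1% without the 3 largest clonotypes, 40% with clones of 3 or more cells and 57.1% when cells were grouped by beta chain over all cells. Counting cells in place of clonotypes put the TRAV7 difference at 51.1 points, since each large clone then counts once per cell. For betas of 14 or more residues the difference became 15.4 points. Genes of large clones, such as TRAV7D-3 and TRAV7-6, then also reached the minimum for comparison through their member cells. For such genes clone size sets both the entry and the higher call, so by cells the ratio cannot show a difference in use. By cells, 17 of 25 genes passed the usage ratio in place of 5 of 9. That count was 3 of 9 with clonotypes by V gene and CDR3 bases and 2 of 4 with 3 or more UMIs per contig, which left fewer clonotypes. The difference for alphas of 14 or more residues was 15.2 points with 3 or more UMIs and 18.2 points with clones of 3 or more cells, opposite in sign to the reported -8.72 points. It was also positive with clonotypes by V gene and CDR3 bases (3.36), extra chains kept (4.76) and cells grouped by beta chain (2.79), and the cause was not tested. With 3 or more UMIs per contig the median difference was 2 TRA UMIs, and that of TRB stayed at 3 while both of its medians rose. No paired analysis was possible because each genotype had 1 library and no result came from a test. The number of clonotypes limits precision: 0 of 24 allows up to 12.5% by 3 counts and 14.2% by the exact interval.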

Other observations

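The betas of the expanded clonotypes often held a run of G in their joint, a property looked at after the sequences had been seen. A run of 4 or more G between the shared V start and J end was in 18 of 24 expanded betas (75%, exact 95% interval 53.3 to 90.2%) and in 53 of 109 single-cell betas (48.6%, 38.9 to 58.4%). Without the 3 largest clonotypes it was in 16 of 21 (76.2%, 52.8 to 91.8%). G made up 49.8% of the 301 such bases in expanded betas and 45.3% of the 1289 in single-cell betas, and 30% and 31.2% in the alphas, which have no D segment. Both mouse D beta segments are rich in G.

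Single chains were shared with incomplete cells in the single-cell clonotypes too. Of their 109 alphas, 22 were read in 2 or more cells (20.2%, 13.1 to 28.9%), and 23 of the 41 alpha-only cells carried one of them. For 13 of these 23 the alpha was also that of an expanded clonotype, and 11 of the 13 carried the alpha of clonotype38, which leaves 10 of 41. For betas, 26 of the 92 beta-only cells did, and without betas of expanded clonotypes 10 of 92.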
